A study of Mus musculus with 74 samples.

Results

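Mice of genotype HC and HH carry the same H nuclear genome with C or H mitochondrial DNA (mtDNA), and fragments of mitochondrial tRNA arginine (*mt-TR*) were compared between the lungs of these mice. The libraries were chosen by their labels as those of genotype HC or HH in the batches numbered 2 and 3, which gave 22 of the 74 libraries of the series. HC was represented by 10 libraries (4 female, 6 male) and HH by 12 (6 female, 6 male), and each library was the unit of comparison. A further 12 male libraries, of genotype CC or CH, were drawn on only to compare the nuclear genomes. In a genotype the mtDNA is written after the nuclear genome, and C stands for the strain C57BL/6J and H for C3H/HeN. HC is a mitochondrial-nuclear exchange (MNX) strain, made by pronuclear transfer and bred in-house, whereas HH mice were wild-type animals from commercial vendors. The source of the animals and their mtDNA therefore cannot be told apart. No agent was given to either group, and small RNA was sequenced without repair of fragment ends or removal of methyl groups. The labels number the libraries as separate replicates, but the RNA protocol mentions pooling and does not say how many animals a library holds. P-values thus measure the spread between these libraries, which may in part be technical.

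Mitochondrial tRNAs are transcribed as part of long polycistronic RNA, released by RNase P and RNase Z, and given a CCA tail at the 3′ terminus after cleavage. A tRNA folds into an acceptor stem, a D-arm, an anticodon arm and a T-arm, and nucleases that cut in the exposed loops leave tRNA-derived fragments (tRF). In mice the A-rich D-loop of *mt-TR* is polymorphic between inbred strains, so an exchange of mtDNA also exchanges the form of this tRNA.

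The *mt-TR* gene (*mt-Tr*, ENSMUSG00000064361.1, class Mt_tRNA) lies on the plus strand at chrM:9808-9875 of GRCm38 (mm10), between *mt-Nd3*, which ends at 9806, and *mt-Nd4l*, which starts at 9877. Mature *mt-TR* with CCA was 71 nt long for C mtDNA and 73 nt for H mtDNA. Both forms are shown with the run of T and A in the D-loop in capitals, because the genotypes differ there. C has 3 T and 8 A, and H has 4 T and 9 A. The C form was read from the GENCODE annotation with CCA added, and the H form from the supplementary alignment of the study, which used C3H/HeJ.
C mtDNA: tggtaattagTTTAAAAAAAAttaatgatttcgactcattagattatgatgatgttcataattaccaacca
H mtDNA: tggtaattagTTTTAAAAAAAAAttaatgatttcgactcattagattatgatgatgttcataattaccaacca

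Positions below are those of the C form, and H positions were aligned from the 3′ end by subtracting 2. On this scale the D-arm spans 8 to 23, the anticodon arm 24 to 40, the variable region 41 to 44, the T-arm 45 to 60, and the acceptor strand with CCA 61 to 71. The anticodon occupies 31 to 33. The fragments on which the results turn are printed 5′ to 3′ with the anticodon in capitals, each named by its start and end and, where no CCA base is included, its interval on GRCm38.
31-55, chrM:9838-9862, highest mean share in HC: TCGactcattagattatgatgatgt
31-54, chrM:9838-9861, highest mean share in HH: TCGactcattagattatgatgatg
24-45, chrM:9831-9852, most reads of the named fragments: aatgattTCGactcattagatt
20-40, chrM:9827-9847, lowest p in the test of single fragments: aattaatgattTCGactcatt
25-53, chrM:9832-9860, next lowest p: atgattTCGactcattagattatgatgat
27-54, chrM:9834-9861, among the 5 lowest p: gattTCGactcattagattatgatgatg
48-70, among the 5 lowest p, cut within CCA: gatgatgttcataattaccaacc
52-70, also among the 5 lowest p, cut within CCA: atgttcataattaccaacc
16-38, chrM:9823-9845, starting inside the run of A: aaaaaattaatgattTCGactca
10-37, chrM:9817-9844, spanning the polymorphic run in HC: gtttaaaaaaaattaatgattTCGactc
14-37 on the H form, spanning the polymorphic run in HH: taaaaaaaaattaatgattTCGac

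HC libraries held 1883 *mt-TR* reads in all and HH libraries 864. The number of reads per library ran from 7 to 1280 in HC, with a median of 77, and from 0 to 334 in HH, with a median of 19. A single library, HC male replicate 3, held 1280 reads, or 67.98% of all HC reads and 46.6% of the reads of both genotypes. Among HH libraries, female replicate 5 held 334 reads (38.7% of HH reads), male replicate 5 held 176 and female replicate 6 held 171. Most HC reads thus came from a single library.

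Because only reads of *mt-TR* were counted, the depth of the whole libraries is unknown, and more *mt-TR* RNA cannot be told apart from deeper sequencing. For the same reason the lung label could not be checked against marker genes. Its title and labels name lung, but the series design names liver. All reads matched the mtDNA form of the library's own label exactly, and the study's methods describe mapping to that form alone, so the mtDNA label could not be checked independently. No pair of libraries had identical counts.

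On the log2(reads + 1) scale HC libraries averaged 6.04 ± 2.09 (SD, n = 10) and HH libraries 4.50 ± 2.56 (SD, n = 12). The difference of 1.54 was within the spread between libraries (exact permutation test within sex and batch, two-sided, p = 0.0997). The batches did not behave alike. In batch 2, HC libraries held 8 to 1280 reads (median 88.5, n = 8) and HH libraries 0 to 334 (median 12, n = 9), and the log2 difference was 2.76 (exact permutation test, p = 0.0227). The library names of batch 2 form 3 series. The 4 HH males of batch 2, with 0 to 12 reads, were in a series without HC, and the 4 HC males, with 8 to 1280 reads, were in another that held HH females only, so that genotype and series cannot be told apart in these males. A single series held females of both genotypes, with 33 to 105 reads in 4 HC libraries and 2 to 25 reads in 3 HH libraries. There the log2 difference was 2.44 (exact permutation test, chosen after the values were seen, two-sided, p = 0.0571, the smallest this design allows).

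In batch 3, the HC libraries held 7 and 82 reads, and the HH libraries 94, 171 and 176. The order of the genotypes was thus opposite in batch 3, where the ranges did not overlap. The HC minus HH difference was larger by 5.22 log2 units in batch 2 than in batch 3 (exact permutation test of batch labels within genotype and sex, chosen after the values were seen, two-sided, p = 0.0311). Over both batches the log2 difference was 1.06 without HC male replicate 3 (p = 0.197, exact permutation test). It was 1.89 without HH female replicate 5 (p = 0.0356, exact permutation test) and 1.87 without HC male replicate 6 (p = 0.0293, exact permutation test). Without HH female replicate 6 or HH male replicate 5 it was 1.80 and 1.81.

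**Figure D1:**
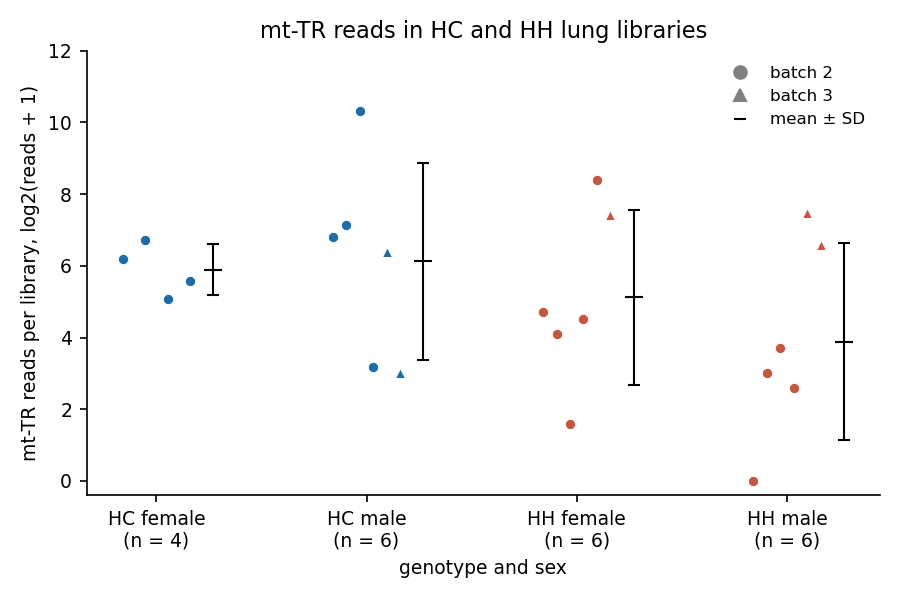
*mt-TR* reads per library on a log2(reads + 1) axis by genotype and sex, with circles for batch 2, triangles for batch 3, and bars for the mean ± SD. HC male replicate 3, with 1280 reads, stands above all other libraries, and the 3 HH libraries of batch 3 lie above most HH libraries of batch 2.

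Fragments of both genotypes came from the same stretch of the molecule, centred on the anticodon arm. The following shares use the libraries with at least 10 reads, which were 8 HC and 8 HH, and give each library equal weight. Position 36, in the anticodon stem, was covered by the most reads, at 82.1% ± 8.52 (SD, n = 8) of reads in HC and 83.6% ± 14.3 (SD, n = 8) in HH. No read of either genotype contained the 5′ terminus. Starts lay between positions 10 and 54 in HC and between 12 and 54 in HH.

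Position 24, where the anticodon arm begins, was the most used start in both genotypes. On average 13.4% ± 9.94 (SD, n = 8) of HC reads and 14.8% ± 15.8 (SD, n = 8) of HH reads started there. Among HC libraries this share ran from 3.03% to 30.2%, and among HH libraries from 0% to 50%. The next starts in HC were 25 (11.6%), 27 (9.44%) and 31 (8.80%), all inside the anticodon arm. In HH they were 23 (7.87%), 20 (7.17%) and 25 (7.04%), of which 23 and 20 lie in the D-arm. The most used ends were 55 (8.17%), 54 (6.97%) and 71 (6.82%) in HC, and 54 (8.38%), 71 (6.53%) and 53 (6.12%) in HH. These ends are in the T-loop, apart from 71, which is the last base of CCA.

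**Figure D2:**
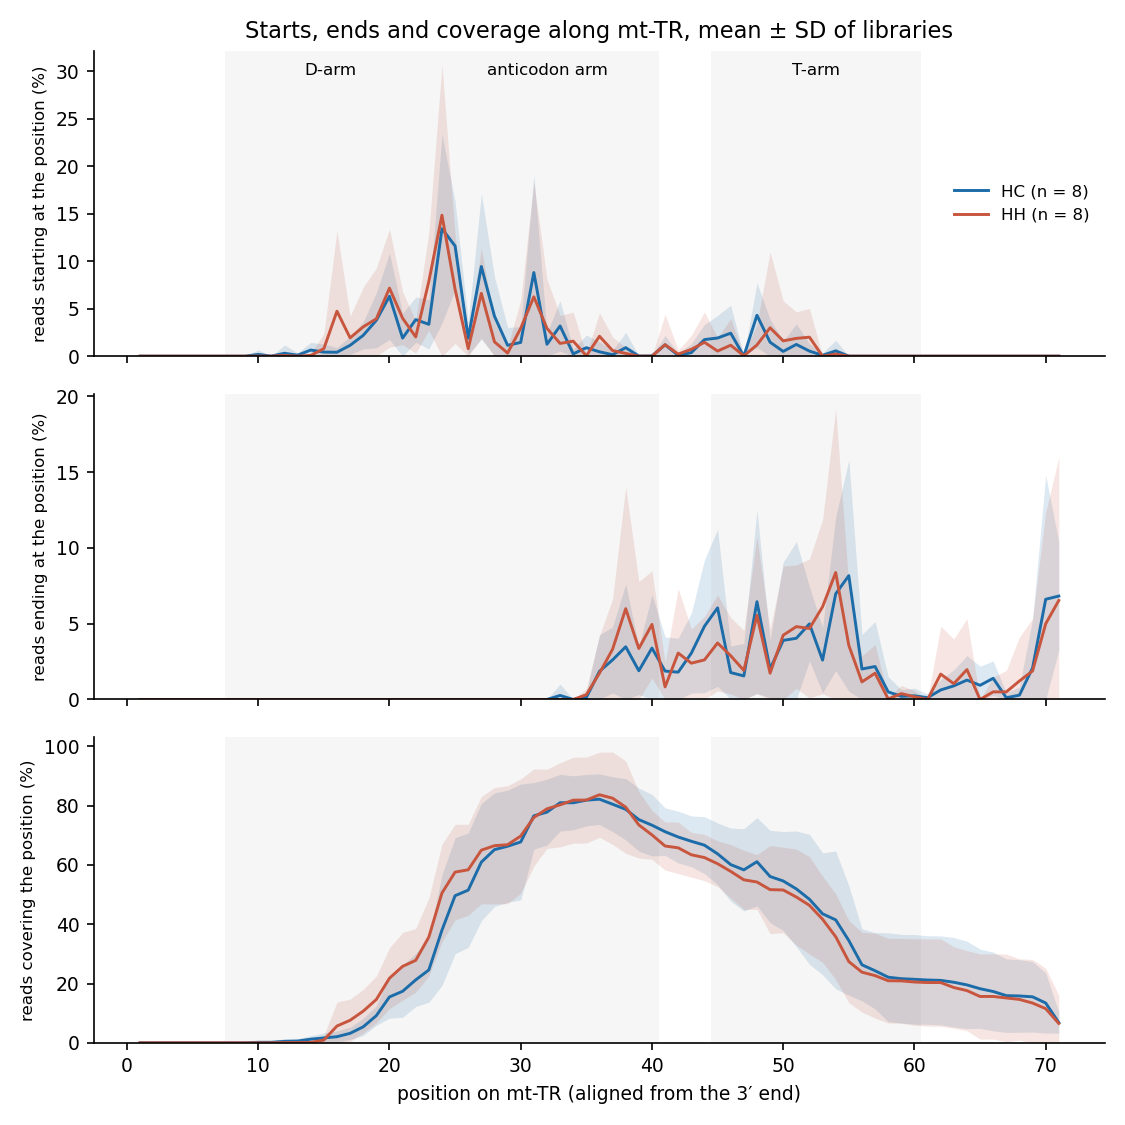
Mean percent of a library's *mt-TR* reads that start at, end at or cover each position, with shaded bands of ± SD over 8 HC and 8 HH libraries, and grey blocks for the D-, anticodon and T-arms. The bands overlap along the whole molecule, starts peak at 24, and coverage peaks at 36 in both genotypes.

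Mean fragment length did not differ beyond the spread between libraries. It was 24.4 nt ± 1.16 in HC and 24.4 nt ± 1.09 in HH (SD, n = 8 each). The difference was -0.01 nt with an SE of 0.562 nt (exact permutation test, two-sided, p = 0.714), and the smallest p the design allowed was 0.00238. Lengths ran from 15 to 40 nt in HC and from 17 to 39 nt in HH, with a median of 23 nt over all reads of either genotype. The mean start was position 28.8 ± 3.19 in HC and 28.0 ± 3.37 in HH, and the mean end 52.2 ± 4.06 in HC and 51.4 ± 3.76 in HH (SD, n = 8 each). The starts differed by 0.85 nt with an SE of 1.64 nt (exact permutation test, p = 0.771), and the ends by 0.84 nt with an SE of 1.96 nt (exact permutation test, p = 0.95). Without HC male replicate 3 the differences were 0.0866 nt for length, 1.45 nt for starts and 1.53 nt for ends.

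Fragments of 25 to 29 nt took a larger mean share of reads in HC, although the difference did not pass correction. The share was 32.95% ± 8.41 in HC and 22.4% ± 8.52 in HH (SD, n = 8 each), a difference of 10.5 percentage points with an SE of 4.23 (exact permutation test, two-sided, p = 0.00476, adjusted p = 0.148 over 31 shares by Benjamini-Hochberg). Among females of batch 2, the HC libraries had 28.6%, 39.4%, 42.6% and 45.8%, and the HH libraries 12.5%, 18.2%, 28.0% and 29.9%. In these females 3 of 4 HC libraries lay above every HH library. Among males of batch 2, the HC libraries had 23.7%, 25.5% and 27.6%, against 8.33% in the only HH library, which rests on 12 reads. In batch 3 the HC library, a male, had 30.5%, and the HH libraries had 31.6% in the female and 24.4% and 26.6% in the males. The ranges of the genotypes overlapped there. In the females of the library series that held both genotypes, 4 HC libraries had 28.6% to 45.8% and 2 HH libraries 12.5% and 28.0% (exact permutation test, p = 0.133, the smallest this design allows).

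The difference in this length class was 11.3 points without HC male replicate 3, 11.6 without HH female replicate 5, 11.8 without HH female replicate 6 and 10.8 without HH male replicate 5. It was 0.876 points when the reads of the libraries with at least 10 reads were pooled. With equal weight for each library, it was 2.10 points when libraries of fewer than 10 reads were included. Over all libraries, 540 of 1883 HC reads were of this length (28.7%, 95% Wilson interval 26.7 to 30.8) and 241 of 864 HH reads (27.9%, 25.01 to 30.98). These intervals cover counting error only.

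Fragments of 20 to 24 nt had the highest mean share of the length classes in both genotypes, and the mean was lower in HC. They made up 38.7% ± 9.47 of reads in HC and 46.2% ± 12.8 in HH (SD, n = 8 each, exact permutation test, p = 0.0262, adjusted p = 0.406). Libraries ranged from 23.6% to 48.9% in HC and from 31.6% to 66.7% in HH. The order turned when all reads were pooled, with 42.9% in HC and 40.97% in HH. In HC females the class of 25 to 29 nt had the higher mean, at 39.1% against 33.7% for 20 to 24 nt. Fragments of 15 to 19 nt made up 14.2% in HC and 14.8% in HH, and those of 30 nt or more 14.1% and 16.6% (exact permutation tests, adjusted p = 0.822 and 0.744). The signs of the differences for the shortest and the longest class changed with the minimum number of reads per library.

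**Figure D3:**
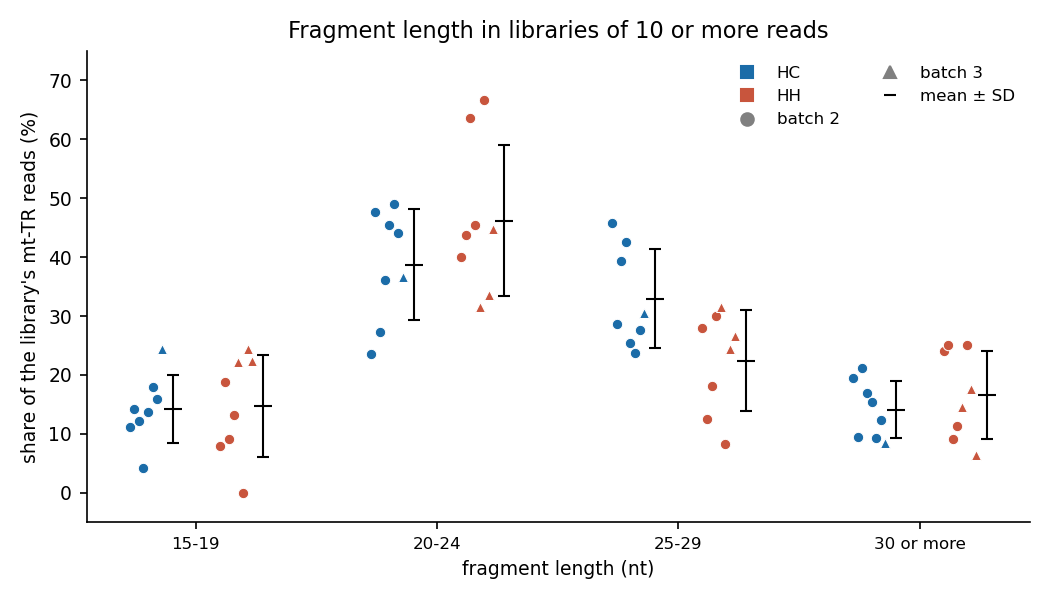
Share of each library's *mt-TR* reads in 4 length classes (percent), for 8 HC and 8 HH libraries of at least 10 reads, with circles for batch 2, triangles for batch 3 and bars for the mean ± SD. The mean for 25 to 29 nt is 32.95% in HC and 22.4% in HH, and the points of the genotypes overlap in every class.

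Over all 31 shares of length, start, end, region and fragment class, 0 passed an adjusted p of 0.05 (0.0%, exact permutation tests with Benjamini-Hochberg adjustment). The smallest p these tests allowed was 0.00238, so a single share could not have passed the adjustment on its own. At an unadjusted p of 0.05 there were 3 (9.68%), which were the lengths of 20 to 24 and 25 to 29 nt and the short fragments starting at 25 to 31. For 0 of the 31 shares did the ranges of the HC and HH libraries fail to overlap (0.0%). The mean was higher in HC for 16 shares and lower for 15.

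By where a fragment lies, reads were sorted into 7 exclusive classes. Short fragments (under 30 nt) that start within the anticodon arm, at 25 to 31, carry the anticodon or its loop at or near the 5′ end. They had the highest mean share of the classes in HC, at 34.8% ± 11.9, and made up 22.6% ± 5.67 in HH (SD, n = 8 each, exact permutation test, p = 0.0405, adjusted p = 0.418). Among HC libraries the share ran from 20.2% to 51.5% with a median of 30.9%, and among HH libraries from 16.0% to 33.3% with a median of 20.9%. The highest values were 51.5% and 51.1%, in HC female replicates 6 and 7, and the lowest HC value was that of HC male replicate 3. Without that library the difference rose from 12.2 to 14.3 points (adjusted p = 0.295, exact permutation test). When positions were instead counted from the 5′ end of each form, it was 2.43 points, but 25 to 31 are then other bases of the H form. With all reads pooled, the class made up 24.2% of HC reads and 21.9% of HH reads, and in HC the short fragments starting at 1 to 23 were then the larger class. Without HC male replicate 3 the pooled share in HC was 32.8%.

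In females the HC libraries had 25.7% to 51.5% of reads in this class and the HH libraries 16.0% to 22.7%. These ranges did not overlap. Of the 31 shares, the only other without overlap in females was starts at 25 to 31 of any length, which includes these reads. That share ran from 26.7% to 57.6% in HC and from 16.0% to 24.6% in HH. In the library series that held females of both genotypes, 4 HC libraries had 25.7% to 51.5% and 2 HH libraries 16.0% and 18.75%. That difference was 22.0 points (exact permutation test, p = 0.133, the smallest this design allows). In males the HC libraries had 20.2% to 41.5% and the HH libraries 19.9% to 33.3%, with overlap. The HC minus HH difference was 16.6 points larger in females (exact permutation test of sex labels, p = 0.0381), and it did not pass correction over the 34 measures tested (adjusted p = 0.337). Of those 34 measures, 5 passed at an unadjusted p of 0.05 and 0 after adjustment (0.0%). With 525 arrangements, a single measure could not have passed the adjustment on its own. The test permutes sex within genotype and batch, so its null is no effect of sex in either genotype.

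Short fragments that start in the D-arm or acceptor strand, at 1 to 23, showed the opposite order of means. They took 19.7% ± 10.3 of reads in HC and 29.3% ± 12.3 in HH (SD, n = 8 each, exact permutation test, p = 0.245, adjusted p = 0.744). The HC libraries ran from 3.03% in female replicate 6 to 36.02% in male replicate 3, and the HH libraries from 13.6% in female replicate 4 to 45.7% in male replicate 6. The library with the most reads was the highest of its genotype in HC (36.02%, 1280 reads), and in HH it was next to the highest (45.2%, 334 reads). With the reads pooled, this class made up 30.4% of HC reads and 38.1% of HH reads, and without HC male replicate 3 it made up 18.6% of HC reads.

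Starts at 1 to 23 of any length made up 24.6% in HC and 35.7% in HH (exact permutation test, adjusted p = 0.744), and starts at 25 to 31 made up 38.5% and 25.4% (adjusted p = 0.480). Of all sequenced bases, 4.27% ± 1.77 in HC and 6.20% ± 2.15 in HH (SD, n = 8 each) fell in the D-arm (exact permutation test, adjusted p = 0.738). The anticodon arm received 48.99% of bases in HC and 50.3% in HH, the T-arm 28.0% and 26.1%, and the acceptor strand with CCA 7.46% and 6.87% (exact permutation tests, adjusted p = 0.983 for each).

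Short fragments that start at 24 made up 11.5% ± 9.58 in HC and 10.6% ± 8.49 in HH (SD, n = 8 each). The libraries were widely scattered in both genotypes. In HC, male replicates 2 and 3 had 28.1% and 21.8% and female replicate 5 had 16.2%, while the remaining 5 libraries had 3.03% to 10.9%. In HH, female replicate 2 had 25% of its 16 reads here, and female replicate 4 had none of its 22 reads. Pooled, the class made up 18.9% of HC reads but 12.8% without HC male replicate 3, and 11.0% of HH reads.

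Fragments that end in the tail were few and uneven. Those with the whole CCA, ending at 71, made up 6.82% ± 3.56 in HC and 6.53% ± 9.45 in HH (SD, n = 8 each, exact permutation test, adjusted p = 0.983). Every HC library of at least 10 reads had them, from 0.469% in male replicate 3 to 12.4% in female replicate 5. In HH they were seen in 4 female libraries of batch 2, at 3.29%, 6.25%, 20.0% and 22.7%. They were counted 0 times among the 294 reads of HH males, which allows a share of up to 1.02% (3 reads of the total, counting error only), and the 3 HH libraries of batch 3 had none. The single HC library of batch 3 with at least 10 reads had 6.10%. Pooled, they made up 2.92% of HC reads, 8.13% of HC reads without male replicate 3, and 2.55% of HH reads.

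Fragments that end at 68 to 70, within or just before CCA, made up 8.97% ± 10.4 in HC and 8.10% ± 6.18 in HH (SD, n = 8 each, exact permutation test, adjusted p = 0.983). HC libraries fell into separate levels, with 20.9% in male replicate 1, 21.2% in female replicate 6 and 22.2% in female replicate 4, and 0% to 3.66% in the remaining 5. HH libraries were spread from 0% to 20.0%, with a median of 8.21%. Other fragments of 30 nt or more, which have lost both termini, made up 12.4% in HC and 15.0% in HH, and short fragments starting at 32 or later 5.82% and 7.76% (exact permutation tests, adjusted p = 0.744 and 0.983).

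**Figure D4:**
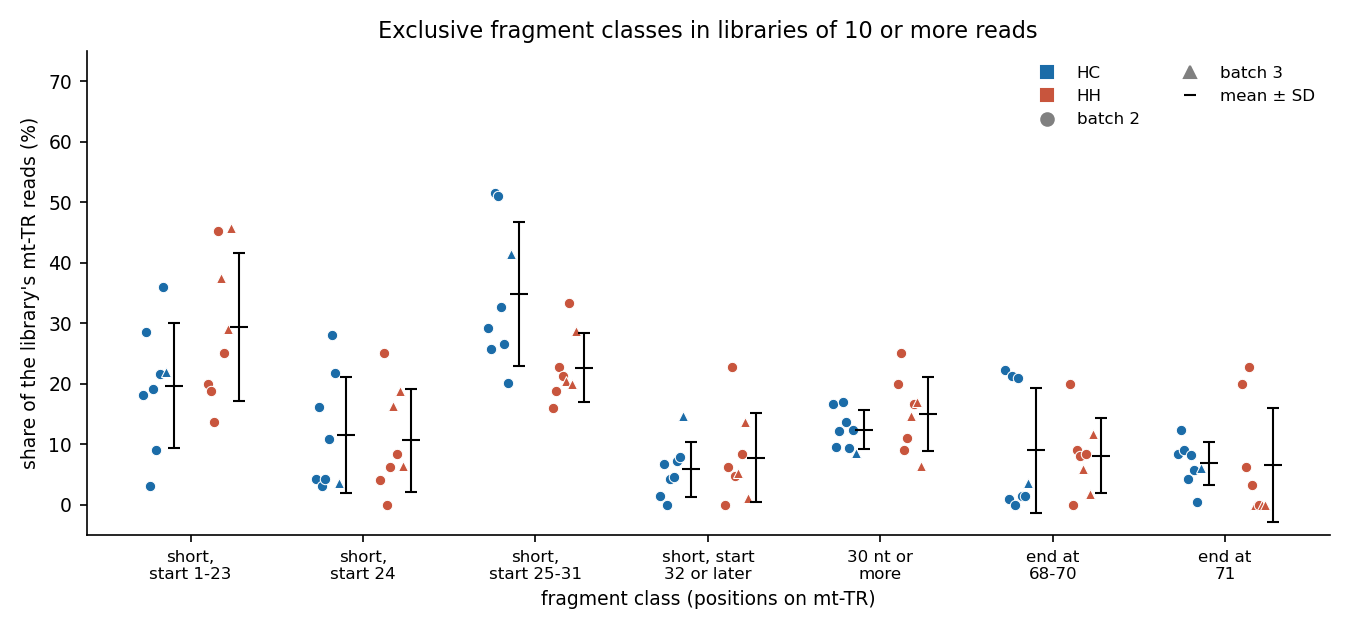
Share of each library's *mt-TR* reads in 7 exclusive classes (percent), for 8 HC and 8 HH libraries, with circles for batch 2, triangles for batch 3 and bars for the mean ± SD. Short fragments starting at 25 to 31 have a mean of 34.8% in HC and 22.6% in HH, and 3 HC libraries stand apart from the others in fragments ending at 68 to 70.

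The study probed RNA blots with oligonucleotides against positions 18 to 36 (R3), 29 to 48 (R4) and 53 to 71 (R5) of the C form, and reads that cover a whole target were counted. R3 was covered by 5.00% ± 3.19 of HC reads and 10.5% ± 7.39 of HH reads (SD, n = 8 each, exact permutation test, p = 0.102, adjusted p = 0.635). HC libraries ran from 2.13% to 12.2% and HH libraries from 4.00% to 25%. R4 was covered by 31.7% ± 16.0 and 29.8% ± 10.7, and R5 by 6.27% ± 3.37 and 6.53% ± 9.45 (SD, n = 8 each, exact permutation tests, adjusted p = 0.822 and 0.983). R4, which runs from the anticodon loop to the T-stem, was thus the target most often covered by reads in both genotypes. Coverage of a whole target by reads of at most 40 nt is not hybridization, and it was not compared with the blots. On the blots, the paper reports the most diverse bands with R3 and no fragments with R5.

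HC libraries held 325 distinct fragments and HH libraries 220, and 176 were seen in both. The shared fragments were 54.2% of the HC fragments and 80.0% of the HH fragments, and carried 82.8% of HC reads and 91.0% of HH reads. Without HC male replicate 3, HC held 199 fragments, of which 117 were shared (58.8% of HC and 53.2% of HH fragments). Most fragments were sparse. Of 369 fragments in all, 152 were seen in a single library and 63 in 5 or more, and none was in more than 10 of the 22 libraries. In a draw of 10 reads, an HC library was computed to hold 9.08 ± 0.307 distinct fragments and an HH library 8.48 ± 1.20 (SD, n = 8 each, exact permutation test, p = 0.110). Without HH female replicate 5 the difference was 0.760 (p = 0.0476, exact permutation test), against 0.605 with it.

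Reads that reach across the run of A into the run of T, the only ones whose sequence tells the forms apart, were rare. There were 6 such reads of 6 fragments in HC and 1 read in HH. The 5 named of these in HC start at 10 to 13, in or next to the run of T, and end at 36 to 38, in the 3′ strand of the anticodon stem. The only one in HH runs from 14 to 37 of the H form. All remaining reads of these libraries occur in both forms.

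Single fragments were tested with the quasi-likelihood test of edgeR, with sex and batch in the model. Unlike the shares, this test used every library that held reads, also those of fewer than 10. Of 91 fragments with at least 10 reads, 0 passed an adjusted p of 0.05 (0.0%), and 11 passed at an unadjusted p of 0.05 (12.1%). DESeq2 called 0 fragments, and 0 at an unadjusted p of 0.05.

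Fragment 31-55 starts at the anticodon itself and ends in the T-loop. It had the highest mean share in HC, at 3.91% ± 6.22 (SD, n = 8), against 0.569% ± 1.49 (SD, n = 8) in HH. In HC it had 6 reads in each of female replicate 6 and male replicate 1, 5 in male replicate 3, 4 in female replicate 4, and 1 in each of female replicate 5 and male replicate 2. In HH it had 4 reads in male replicate 6 and 1 in female replicate 5. It was thus seen in 6 HC and 2 HH libraries, with a log2 fold change of 2.35 ± 1.48 (SE, edgeR, adjusted p = 0.544). Fragment 31-54, which is 1 nt shorter, had 29 reads in 5 HC libraries and 14 reads in 2 HH libraries. Its mean share was 2.88% ± 4.49 in HC and 5.50% ± 11.8 in HH (SD, n = 8 each), of which the latter rests on 4 of the 12 reads of HH male replicate 3 and was 1.52% without that library. It had a log2 fold change of -0.35 ± 1.73 (SE, edgeR, adjusted p = 0.989).

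Fragment 24-45 had 98 reads in 6 HC libraries and 11 reads in 3 HH libraries. HC male replicate 3 held 81 of the 98 reads, and its share in the mean of 8 libraries was 2.91% ± 2.52 (SD) in HC and 1.39% ± 2.397 (SD) in HH. The log2 fold change was 0.59 ± 1.29 (SE, edgeR, adjusted p = 0.870). The excess of HC reads was thus mostly that of a single library.

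Of the 5 fragments with the lowest p in edgeR, 3 had lower fitted shares in HC. Fragment 20-40, which ends with the anticodon arm, had 39 reads in 2 HC libraries, 38 of them in male replicate 3. In 4 HH libraries it had 18 reads, with 14 in female replicate 5 and 2 among the 7 reads of male replicate 2. Its log2 fold change was -3.31 ± 1.12 (SE, edgeR, adjusted p = 0.137). Fragment 25-53 had 9 reads in 3 HC libraries and 11 reads in 4 HH libraries (log2 fold change -3.54 ± 1.22, SE, edgeR, adjusted p = 0.137). Of its HH reads, 3 were among the 5 reads of male replicate 4. Here too the mean shares lay closer together than the fit, at 0.311% ± 0.468 in HC and 0.998% ± 1.74 in HH (SD, n = 8 each). Fragment 52-70, a 3′ fragment without the last A of CCA, had 1 read in HC and 10 reads in 4 HH libraries (log2 fold change -3.20 ± 1.15, SE, edgeR, adjusted p = 0.137).

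Fragment 48-70, which shares the 3′ end of 52-70, had the opposite sign. It had 11 reads in 4 HC libraries and 2 reads in a single HH library (log2 fold change 3.09 ± 1.09, SE, edgeR, adjusted p = 0.137). Fragment 27-54 had 27 reads in 5 HC libraries, 21 of them in male replicate 3, and 5 reads in 2 HH libraries (log2 fold change 3.07 ± 1.23, SE, edgeR, adjusted p = 0.231). Fragments that end at the same base of CCA thus differed in the direction of their values, and none passed the test.

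The other named fragments had no common direction. Fragment 24-43 had 33 reads in 6 HC and 11 reads in 4 HH libraries, and 25-44 had 33 reads in 4 HC and 6 reads in 2 HH libraries. Fragment 24-53 had 20 reads in 5 HC and 6 reads in 2 HH libraries, and 20-48 had 18 reads in 3 HC and 19 reads in 4 HH libraries. Fragment 27-50 had 7 reads in 3 HC and 10 reads in 4 HH libraries, and 23-40 had 5 reads in a single HC library and 10 reads in 5 HH libraries. Fragment 49-71, which keeps the whole CCA, had 7 reads in 4 HC and 7 reads in 2 HH libraries. Their adjusted p in edgeR ran from 0.544 to 0.989, so none differed beyond the spread between libraries.

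The calls of single fragments turned on the minimum of reads, the batch and single libraries. With at least 20 reads, 2 of 37 fragments were called, 20-40 and 25-53, both higher in HH (edgeR, lowest adjusted p = 0.0414). In batch 2 alone, 1 of 60 was called, 25-53, higher in HH (edgeR, adjusted p = 0.0191). Its HH reads there included 3 of the 5 reads of male replicate 4. Without HC male replicate 3, 45 fragments were tested and 2 were called, both higher in HH, of which 20-40 was one. Without HH female replicate 5, 2 of 80 were called, both higher in HC, of which 48-70 was one. Without HC male replicate 5, 2 of 87 were called, with 1 in each direction, of which 25-53 was one. Leaving out any other library gave 0 calls. Fragment 16-38 was the only one called among all 369 without a minimum of reads, with 3 reads in HH male replicate 3, 1 in HH female replicate 2 and 1 in HC male replicate 3.

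Whether the exchange of mtDNA had the same values on the C nuclear genome was compared in males. The male libraries of at least 10 reads were 4 HC, 3 HH, 5 CC and 6 CH, where CC and CH carry the C nuclear genome with C and H mtDNA. HC and CH are MNX strains, and HH and CC are wild-type. The MNX strain thus carries C mtDNA on the H nuclear genome and H mtDNA on the C nuclear genome. Fragments of 25 to 29 nt made up 26.8% ± 2.91 in HC, 19.8% ± 9.98 in HH, 17.1% ± 13.4 in CC and 26.8% ± 9.34 in CH (SD). The difference between C and H mtDNA had opposite signs on the nuclear genomes, and the difference of differences was 16.8 points (exact permutation test of nuclear labels, two-sided, p = 0.0238, adjusted p = 0.348 over 34 measures). On both nuclear genomes the MNX strain had the higher mean. The change of sign therefore cannot be told apart from a difference between MNX and wild-type animals. Of the 34 measures, 0 passed after adjustment (0.0%) and 4 at an unadjusted p of 0.05. Short fragments starting at 25 to 31 made up 30.2% in HC, 27.3% in HH, 30.6% in CC and 20.3% in CH (exact permutation test of the difference of differences, adjusted p = 0.776). No measure was thus shown to respond to mtDNA in a way particular to the H nuclear genome.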

How the data were processed

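The authors deposited raw counts of every distinct *mt-TR* sequence per library. RNA from lung was made into libraries by single-adapter circularization. Submitters' processing notes name FastQC 0.12.1, UMI-tools 1.1.6, cutadapt 5.0, BWA 0.7.18, Bowtie 1.3.1 and mm10. The study's methods describe mapping to the strain's own form of *mt-TR* without mismatches, and the counts hold exact matches only. Which steps were applied to the lung libraries is not given in the sources used here.

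Libraries held 0 to 1280 reads, and a share in a single library is therefore imprecise. Shares and means used libraries of at least 10 reads with equal weight, and genotype labels were permuted within sex and batch over all 840 arrangements. Since sexes and batches are unequally filled, the test compares a difference with the mean over arrangements, not with 0 (for 25 to 29 nt, -2.02 points). Tests of a difference of differences permuted only the labels of sex, nuclear genome or batch. Their null is no effect of that label in either group compared, and they too are not centred on 0. P-values of the 31 shares were adjusted by Benjamini-Hochberg. The classes ending at 71 and at 68 to 70 enter these shares both as ends and as classes. Fragments were tested with edgeR 4.0.16 in R 4.3.3 on counts normalized to the library total, with DESeq2 1.42.0 as an alternative, and fragments spanning the D-loop run were matched between forms by how far their ends lay from the nearest terminus. The SE printed with each log2 fold change was calculated back from the test. It is the absolute fold change divided by the square root of the F statistic. Python 3.11.15, numpy 2.4.6, pandas 2.3.3 and scipy 1.17.1 were used, and the code was tested on simulated data. At the dispersion and depth of these libraries, edgeR called only 4 of 58 simulated fragments that were changed by 2 log2 units. The exact permutation test gave p under 0.05 in 36.5% of simulations with a shift of 10 points. Differences of these sizes could thus be missed. Coordinates are from GENCODE for GRCm38.

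Named fragments were, in each genotype, the 5 with the highest mean share, up to 5 with the most reads that span the D-loop run and the 3 in the most libraries, and the 5 with the lowest p in edgeR. Libraries, regions and tests were chosen with earlier results of these data known. Alternatives were other minimum numbers of reads, pooled reads, distinct sequences, batch 2 alone, other strata, positions from the 5′ end, other filters and normalizations, females of a single series of library names (chosen after seeing the data), leaving out each library, and a replicate block.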

Additional observations from a re-analysis of the deposited data

Results flagged for a closer look

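In groups of 4 to 10 libraries of a genotype and sex, 37 combinations were examined for a library far from the others, and chance alone gives about 1.85. Shares were examined in libraries of at least 10 reads. There were 4. HC male replicate 3 held 1280 *mt-TR* reads, far above the other HC males. HC male replicate 1 had 20.9% of its reads ending at 68 to 70, against 1.41% to 3.66% in the other HC males of at least 10 reads. HC female replicate 5 had 16.2% short fragments starting at 24, against 3.03% to 4.26% in the other HC females. HH female replicate 4 had 22.7% short fragments starting at 32 or later, from 22 reads. The HC minus HH difference in *mt-TR* reads differed between batches, by 5.22 log2 units.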

How the results depend on the processing

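Of 31 shares, 0 passed the adjusted threshold under every alternative, as did 0 of the tests of differences between sexes or nuclear genomes. In the main tests of shares and of sexes, a single measure could not have passed the adjustment on its own. The log2 difference in reads was 2.76 in batch 2 alone, and 1.06 to 1.89 with each library left out. Fragments called by edgeR numbered 1 without a minimum of reads, 2 with at least 20 reads, 1 in batch 2 alone and 0 to 2 with each library left out. filterByExpr kept no fragment and gave no value. With each library left out, the difference in distinct fragments was 0.275 to 0.760. It had no value with a minimum of 1 read, pooled reads or distinct sequences. No cause of these changes was tested.

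Signs of differences that had not passed the test changed as follows, in nt for means and points for shares. With a minimum of 1 read, mean length was 0.0687, 15 to 19 nt 5.64, 30 nt or more 5.03, R4 -2.10, R5 4.01 and other fragments of 30 nt or more 4.86. With 20 reads, mean length was 0.327, 30 nt or more 0.264, ends at 71 -0.850 and ends at 68 to 70 -0.430. With the reads of libraries of at least 10 reads pooled, the mean start was -0.327, mean end -0.366, 20 to 24 nt 2.44, R4 -1.51, R5 0.0884, ends at 68 to 70 -3.19 and starts at 32 or later 0.682. With distinct sequences, 15 to 19 nt was 1.15, R5 2.07 and short starts at 24 -1.92. In batch 2 alone, the mean start was -0.164, mean end -0.487, 15 to 19 nt 2.96 and ends at 71 -3.53. From the 5′ end, the mean start was -1.15, mean end -1.16, starts at 25 to 31 -0.455, ends at 1 to 40 2.28, R4 -0.962, D-arm bases 0.694 and ends at 68 to 70 -4.78. Without the subtraction of 2, H positions are 2 higher by construction, and the 2 means moved by this shift alone. The same windows then hold other bases of the H form, so these changes of sign are in part fixed by the numbering.

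With each library left out, mean length was -0.248 to 0.247, 15 to 19 nt -2.64 to 0.887, R4 -3.22 to 4.69, R5 -1.20 to 2.05, ends at 71 -0.647 to 2.60, ends at 68 to 70 -1.01 to 2.58, short starts at 24 -1.50 to 2.92 and starts at 32 or later -3.20 to 0.202. Of the 13 remaining shares, 34 of 104 values under the other alternatives changed sign.

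Deviations of the 5 same-numbered pairs with at least 10 reads correlated at -0.887 to 0.282. Each correlation rests on 7 class shares, some from few reads, so whether replicate numbers pair the libraries was not settled. In the replicate block, which cannot go below p = 0.0625 in an exact permutation test, mean length was 0.161, 15 to 19 nt 1.79, R5 1.19 and short starts at 24 -0.180, and edgeR called 0 fragments.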
